A study of Mus musculus with 8 samples.

Results

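The genes described here fold, modify and export proteins made at the endoplasmic reticulum (ER). They were a named set of 39 gene symbols, all of which were found among the 17738 symbols of the table, and each was read from its transcript with the highest mean level. The spleens came from 8 untreated C57BL/6 males, 8 to 12 weeks old. The 4 wild-type mice carried normal tristetraprolin (TTP), and the 4 TTPΔARE mice carried an allele of its gene Zfp36 that lacks an AU-rich element of the 3′ untranslated region. Each mouse gave 1 RNA-seq library of whole spleen. The allele was not limited to a cell type by any promoter or Cre that the labels name, and neither zygosity nor litter is given in the sources used here.

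Secreted and membrane proteins enter the ER through the Sec61 translocon, lose their signal peptide to the signal peptidase, and fold with the help of chaperones such as BiP (Hspa5) and of disulfide isomerases. Proteins that fail to fold are taken back to the cytosol for degradation. The unfolded protein response, carried by the sensors IRE1, PERK and ATF6 and by the transcription factor XBP1, raises many of these genes together when the load grows. In spleen they are best known from plasma cells, which secrete antibody in bulk. TTP binds AU-rich elements in mRNAs and promotes their decay.

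Levels were given as FPKM, fragments scaled to transcript length and library size, so that levels of different genes can be set side by side. Estimated depth was 28.35 to 32.25 M fragments per library. Zfp36 stood at 37.9, 42.1, 44.9 and 36.4 FPKM in wild-type replicates 1 to 4 and at 57.5, 46.1, 55.1 and 52.9 FPKM in TTPΔARE replicates 1 to 4, higher by log2 0.39 with an SE of 0.0848 (limma adjusted p = 0.0323). With 1 spleen omitted at a time, that call ended in 5 of 8 fits (adjusted p = 0.0668 to 0.108). The spleens concerned were replicates 1 and 4 of the wild-type mice and replicates 1, 3 and 4 of the TTPΔARE mice. Markers of spleen cells were present, with the T cell gene Cd3e at 19.5 to 23.5 FPKM over the 8 spleens. Of 9 T cell markers none passed (limma), against 4.00% of all transcripts, with 3 estimates above 0 and 6 below. At an unadjusted p under 0.05 there were 1 higher and 4 lower, against 21.1% of all transcripts. Of 21 exocrine pancreas markers in the table, 20 were under 0.5 FPKM on average and none of these passed 0.309 FPKM in any spleen. All 21 erythroid markers tested had a higher estimate in TTPΔARE and 7 passed, with a summed level of 6105 to 11335 FPKM in wild-type and 14692 to 22486 FPKM in TTPΔARE. Globins made up most of that sum. The markers did not share the same order among wild-type spleens. In wild-type replicates 1 to 4, Hba-a1 stood at 2461, 3097, 1751 and 1626 FPKM. Hemgn stood at 1.18, 0.580, 11.6 and 5.10 FPKM in the same spleens. With the mean level of the 21 markers as a covariate, 0 transcripts passed by limma and 1227 had an unadjusted p under 0.05. That mean, on the log2 scale, was 3.24, 3.17, 4.52 and 3.88 in wild-type replicates 1 to 4. In TTPΔARE replicates 1 to 4 it was 4.81, 4.42, 5.39 and 5.37, so it largely followed genotype. This fit therefore cannot tell genotype from erythroid content. Of 12 B cell markers 2 fell, Cd22 and Fcer2a, with a summed level of 1084 to 1158 FPKM in wild-type and 949.5 to 1023 FPKM in TTPΔARE. Markers of other cells also passed, against 4.00% of all transcripts. Higher were 3 of 7 dendritic cell, 2 of 6 megakaryocyte and platelet and 1 of 8 neutrophil markers, with none lower. Of 9 macrophage and monocyte markers 1 was higher and 1 lower, and of 9 stroma and endothelium markers 1 was higher and 3 lower. In whole spleen, fewer cells of a type and less RNA per cell cannot be told apart either.

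Most of the ER machinery did not differ measurably between the genotypes, and the exceptions were 2 disulfide isomerases that moved in opposite directions. Pdia4 rose 1.32-fold in TTPΔARE spleen and Txndc5 fell to 0.654 of its wild-type level. The other 37 members did not pass (limma, adjusted p under 0.05). Among all 16608 transcripts tested, 2.01% were called higher and 1.99% lower, 4.00% in all, so 1 member higher and 1 lower of 39 is near the background. At an unadjusted p under 0.05 there were 7 of 39 members, against 21.1% of all transcripts. The genotypes did not overlap in 5 of 39 members, against 12.5% of all transcripts, with 3 members above the wild-type range (6.53% of all) and 2 below it (5.99% of all).

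The differences were also small. The median log2 difference over the members was -0.01, against 0.003 for all transcripts tested, and the median size without sign was 0.06 against 0.09. Only Pdia4, Txndc5 and Fkbp11 had an estimate beyond 1.25-fold. Of the 37 members that did not pass, 35 had a 95% interval that lay within 1.5-fold in either direction, and Derl3 and Fkbp11 were those that reached past it. For 26 of the 37 the interval lay within 1.25-fold. The members were abundant, with a median of 19.7 FPKM against 4.28 FPKM for all transcripts tested, and 31 of 39 averaged at least 10 FPKM.

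**Figure D1:**
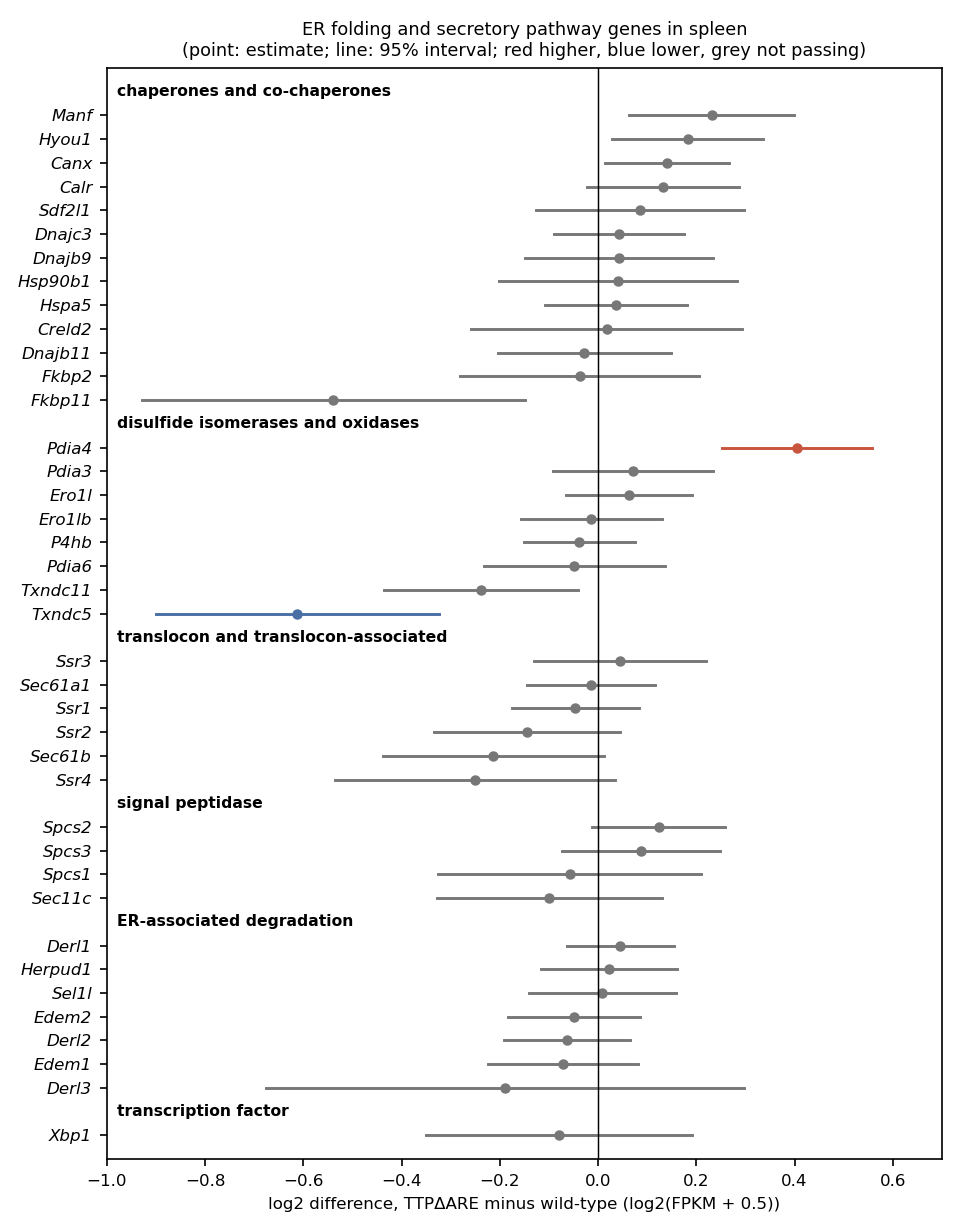
The log2 difference of each of the 39 genes, TTPΔARE minus wild-type, is plotted on the x axis with its 95% interval, and genes are listed by role on the y axis. Pdia4 at 0.40 lies to the right and Txndc5 at -0.61 to the left, while most of the others cross 0.

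The chaperones and co-chaperones held the most abundant members, and none of the 13 passed (limma), against 4.00% of all transcripts. At an unadjusted p under 0.05 there were 4 of 13, against 21.1% of all transcripts. Estimates of the 13 ran from -0.54 to 0.23 on the log2 scale, 10 above 0 and 3 below, with a median of 0.04. Hsp90b1, which encodes the ER-resident HSP90 GRP94, was the most abundant member of all. Its levels were 161, 116, 152 and 160.5 FPKM in wild-type replicates 1 to 4 and 130.5, 159.5, 151 and 163 FPKM in TTPΔARE replicates 1 to 4. The genotypes overlapped almost entirely, since wild-type replicate 2 was the lowest spleen and TTPΔARE replicate 4 the highest (log2 0.04, 95% interval -0.20 to 0.28).

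Hspa5, which encodes BiP, the main HSP70 chaperone of the ER and the usual gauge of the unfolded protein response, was equally close between genotypes. It stood at 66.1, 58.7, 67.6 and 67.9 FPKM in wild-type and at 63.4, 65.2, 71.9 and 66.2 FPKM in TTPΔARE spleens. The difference was log2 0.04 with a 95% interval of -0.11 to 0.18, or 0.928-fold to 1.13-fold. A second Hspa5 transcript gave log2 0.06, without passing. The BiP co-chaperones Dnajb9, Dnajc3 and Dnajb11 had log2 values of 0.04, 0.04 and -0.03. Sdf2l1, a partner of the BiP complex, stood at 0.08, and Creld2, a small ER protein induced by ER stress, at 0.02.

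Manf, Hyou1 and Canx leaned higher in TTPΔARE spleen without passing. Manf, a BiP-binding protein of the ER that can be secreted, stood at 13.7, 10.8, 12.8 and 12.9 FPKM in wild-type and at 15.8, 13.7, 14.6 and 15.1 FPKM in TTPΔARE spleens (log2 0.23, SE 0.0763, adjusted p = 0.117). The genotypes touched at 13.7 FPKM. Hyou1, the exchange factor GRP170 that resets BiP, stood at 17.3, 17.9, 20.3 and 21.3 FPKM in wild-type and at 21.5, 21.6, 22.6 and 21.5 FPKM in TTPΔARE (log2 0.18, adjusted p = 0.164). Canx, the membrane-bound lectin chaperone calnexin, spanned 13.4 to 14.99 FPKM in wild-type and 15.2 to 16.3 FPKM in TTPΔARE (log2 0.14, adjusted p = 0.193). Both Hyou1 and Canx had all TTPΔARE spleens above all wild-type spleens, by a narrow margin. With the erythroid covariate the estimates were 0.14 for Manf, 0.02 for Hyou1 and 0.002 for Canx. All 3 Canx transcripts in the table gave a like estimate, log2 0.14 to 0.17. Calr, the soluble lectin chaperone calreticulin, spanned 117 to 142 FPKM and 134 to 148 FPKM (log2 0.13, adjusted p = 0.319).

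Fkbp11 and Fkbp2 encode peptidyl-prolyl isomerases of the secretory pathway. Fkbp11 stood at 3.05, 1.36, 1.41 and 1.91 FPKM in wild-type and at 0.973, 1.04, 1.30 and 1.17 FPKM in TTPΔARE spleens. Every TTPΔARE spleen was below every wild-type spleen, but wild-type replicate 1 stood far above the other spleens, and the difference did not pass (log2 -0.54, SE 0.177, adjusted p = 0.116). Without that spleen the estimate was -0.34. Fkbp11 was also the least abundant member, and its mean level stands for about 32 fragments in the shallowest library. Fkbp2 had a log2 value of -0.04.

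**Figure D2:**
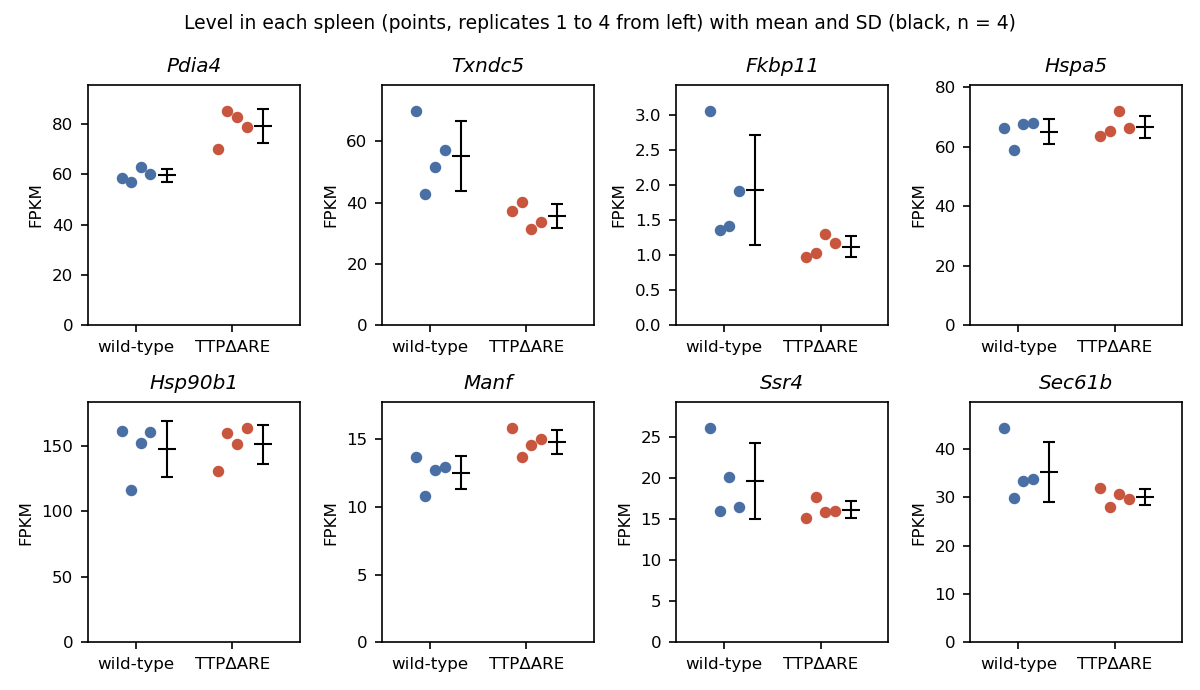
Levels of 8 members in FPKM (y axis, from 0) are shown for the wild-type and TTPΔARE spleens (x axis), 1 point per spleen, with the mean and SD in black. The genotypes are apart for Pdia4, Txndc5 and Fkbp11, and wild-type replicate 1, the leftmost blue point, is the highest spleen for Txndc5, Fkbp11, Ssr4 and Sec61b.

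Among the 8 disulfide isomerases and oxidases, Pdia4 rose, Txndc5 fell and 6 did not pass. Pdia4 encodes ERp72, an abundant protein disulfide isomerase, and lies on chromosome 6 at 47796141 to 47813512 (GRCm38/mm10). Its levels were 58.5, 57.0, 62.8 and 60.2 FPKM in wild-type replicates 1 to 4 and 70.0, 85.2, 83.0 and 78.9 FPKM in TTPΔARE replicates 1 to 4. The lowest TTPΔARE spleen stood above the highest wild-type spleen, and the wild-type spleens were close together. The means were 59.6 ± 2.50 and 79.2 ± 6.70 FPKM (SD, n = 4 each), a log2 difference of 0.40 with an SE of 0.0693 (limma adjusted p = 0.0121). Over the 70 ways to assign the spleens, the exact permutation p (two-sided) was 0.0286, the smallest possible. Any transcript without overlap between the genotypes gets that value, as 12.5% of all tested do, so it adds nothing to the lack of overlap. With each of the 8 spleens left out in turn the estimate ran from 0.37 to 0.46 and the call was kept each time (adjusted p = 0.0111 to 0.0499). With the erythroid marker mean as a covariate it was 0.33 and did not pass (adjusted p = 0.540), as for every other transcript in that fit.

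Pdia4, the 1 member called higher, was also set against other members within each spleen. The ratio of Pdia4 to P4hb, the founding protein disulfide isomerase, was 1.04, 1.07, 1.14 and 1.07 in wild-type spleens and 1.26, 1.60, 1.53 and 1.52 in TTPΔARE spleens. The ratio of Pdia4 to Hspa5 was 0.885, 0.971, 0.930 and 0.887 against 1.10, 1.31, 1.15 and 1.19. Both ratios were higher in every TTPΔARE spleen than in any wild-type spleen, whatever the scaling between libraries. The same held for 31 of the 38 other members as denominator, and not for Manf, Hyou1, Sdf2l1, Hsp90b1, Creld2, Fkbp2 or Derl3. Against Hyou1, for example, the highest wild-type ratio was 3.38 and the lowest TTPΔARE ratio 3.25. All 38 ratios share the Pdia4 values, so the count is a description and not further support for the call. The relatives of Pdia4 among the members did not pass. Pdia3, which works with calnexin and calreticulin on glycoproteins, had log2 0.07, Pdia6 -0.05 and P4hb -0.04. Outside the members, Pdia5 leaned higher at log2 0.30, without passing (limma adjusted p = 0.116). P4hb spanned 53.1 to 56.2 FPKM in wild-type and 51.7 to 55.7 FPKM in TTPΔARE.

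Txndc5 encodes ERp46, a thioredoxin-domain isomerase abundant in plasma cells, and lies on chromosome 13 at 38500266 to 38528824 (GRCm38/mm10). It stood at 69.8, 42.6, 51.5 and 57.1 FPKM in wild-type replicates 1 to 4 and at 37.4, 40.1, 31.3 and 33.5 FPKM in TTPΔARE replicates 1 to 4. The highest TTPΔARE spleen, replicate 2, was just below the lowest wild-type spleen, also replicate 2. The means were 55.3 ± 11.4 and 35.6 ± 3.92 FPKM (SD, n = 4 each), a log2 difference of -0.61 with an SE of 0.131 (limma adjusted p = 0.0287). The exact permutation p was 0.0286, again fixed by the lack of overlap. The call was kept without wild-type replicate 1 (log2 -0.49, adjusted p = 0.0448). Leaving out wild-type replicate 4 ended it (adjusted p = 0.0853), as did leaving out TTPΔARE replicate 1 (adjusted p = 0.0503), 3 (0.101) or 4 (0.0833). With the erythroid covariate it was -0.44 (adjusted p = 0.705).

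Txndc11, another thioredoxin-domain protein of the ER, spanned 8.64 to 10.8 FPKM in wild-type and 7.01 to 8.92 FPKM in TTPΔARE spleens (log2 -0.24, adjusted p = 0.157). Its second and scarcer transcript stood at 2.05 and 2.06 FPKM on average, with log2 0.02. Ero1l and Ero1lb encode the oxidases that recharge the isomerases, and they had log2 values of 0.06 and -0.01. The 95% intervals were 0.955-fold to 1.14-fold for Ero1l and 0.897-fold to 1.09-fold for Ero1lb.

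Of the 17 translocon, signal peptidase and degradation genes, none passed (limma), and none had an unadjusted p under 0.05. The shares of all transcripts tested were 4.00% and 21.1%. The median of the 17 was -0.05 and the range -0.25 to 0.12, against a median of 0.04 for the 21 chaperones, isomerases and oxidases. With the erythroid covariate the order of the medians turned, at -0.02 for the 17 and -0.05 for the 21, and with the plasma cell covariate they were 0.02 and 0.10. The mean over the folding genes, relative to wild-type, was 0.11, -0.18, 0.03 and 0.05 in wild-type replicates 1 to 4 and -0.02, 0.01, -0.02 and 0.02 in the TTPΔARE spleens. For the 17 other genes it was 0.16, -0.18, -0.01 and 0.04, and -0.06, -0.02, -0.08 and -0.05. The TTPΔARE spleens lay inside the wild-type range in both cases.

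In the translocon, 5 of 6 genes had estimates below 0. Ssr4, a subunit of the translocon-associated protein complex that assists signal sequences, stood at 26.1, 16.0, 20.2 and 16.6 FPKM in wild-type and at 15.1, 17.7, 15.9 and 16.1 FPKM in TTPΔARE spleens (log2 -0.25, adjusted p = 0.301). Sec61b, the β subunit of the channel, stood at 44.3, 29.9, 33.4 and 33.7 FPKM in wild-type and at 32.1, 28.0, 30.7 and 29.7 FPKM in TTPΔARE (log2 -0.21, adjusted p = 0.262). In both genes wild-type replicate 1 was the highest spleen and the other wild-type spleens mixed with TTPΔARE. Without that spleen the estimates were -0.11 for Ssr4 and -0.10 for Sec61b. A second, scarcer Ssr4 transcript, not counted above, had log2 -0.36 (limma unadjusted p = 0.0121, adjusted p = 0.120). Its levels were 11.3 to 16.5 FPKM in wild-type and 8.76 to 11.2 FPKM in TTPΔARE spleens, without overlap. Ssr2 had log2 -0.15, Ssr1 -0.05, the channel subunit Sec61a1 -0.01 and Ssr3 0.04.

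The signal peptidase genes were split, with Spcs2 and Spcs3 at log2 0.12 and 0.09 and Spcs1 and the catalytic subunit Sec11c at -0.06 and -0.10. Sec11c spanned 37.2 to 53.7 FPKM in wild-type and 36.3 to 40.1 FPKM in TTPΔARE. Again the upper end of the wild-type range was replicate 1 alone. Of the 7 degradation genes, 6 had estimates between -0.07 and 0.05. Herpud1, a stress-induced part of the retrotranslocation complex, spanned 32.7 to 38.7 and 36.1 to 38.0 FPKM. Sel1l, the adaptor of the HRD1 ubiquitin ligase, had log2 0.01, and the mannosidase-like Edem1 and Edem2 -0.07 and -0.05. The derlins Derl1 and Derl2, rhomboid-like channel proteins, had 0.05 and -0.06. Derl3, the derlin enriched in secretory cells, was the exception in spread, at 6.77, 2.60, 4.88 and 6.02 FPKM in wild-type and 4.61, 4.93, 3.66 and 3.55 FPKM in TTPΔARE spleens (log2 -0.19, 95% interval -0.68 to 0.30). Its whole spread in TTPΔARE lay inside that in wild-type, and the Derl3 estimate was -0.04 when wild-type replicate 1 was omitted, -0.09 when replicate 4 of that genotype was omitted and -0.45 when replicate 2 was.

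Xbp1, the transcription factor that drives much of this set, stood at 23.3, 14.2, 18.1 and 18.9 FPKM in wild-type and at 15.8, 16.4, 18.5 and 18.9 FPKM in TTPΔARE spleens (log2 -0.08, adjusted p = 0.766). Its second transcript had log2 -0.12. Xbp1 is made active by splicing of its mRNA at the ER membrane, and FPKM of whole transcripts that share nearly all their sequence do not measure that step. The sources used here do not say how reads were shared among the 18 transcripts of the 8 members with several.

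The wild-type spleens differed among themselves across much of the set. Wild-type replicate 2 was the lowest of the 4 wild-type spleens for 32 of 39 members (82.1%), against 26.1% of all transcripts tested, and it was the lowest of all 8 spleens for 23. Wild-type replicate 1 was the highest wild-type spleen for 21 members (53.8%), against 29.6% of all transcripts tested. The summed level of the 39 genes was 1036 to 1283 FPKM in wild-type and 1140 to 1214 FPKM in TTPΔARE spleens, so the wild-type range enclosed the TTPΔARE range. These genes are not independent of each other within a spleen, so the counts are a description. With 1 spleen left out at a time, the median of the folding genes was lowest when wild-type replicate 2 was omitted (-0.01) and highest when replicate 1 of that genotype was omitted (0.07).

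**Figure D3:**
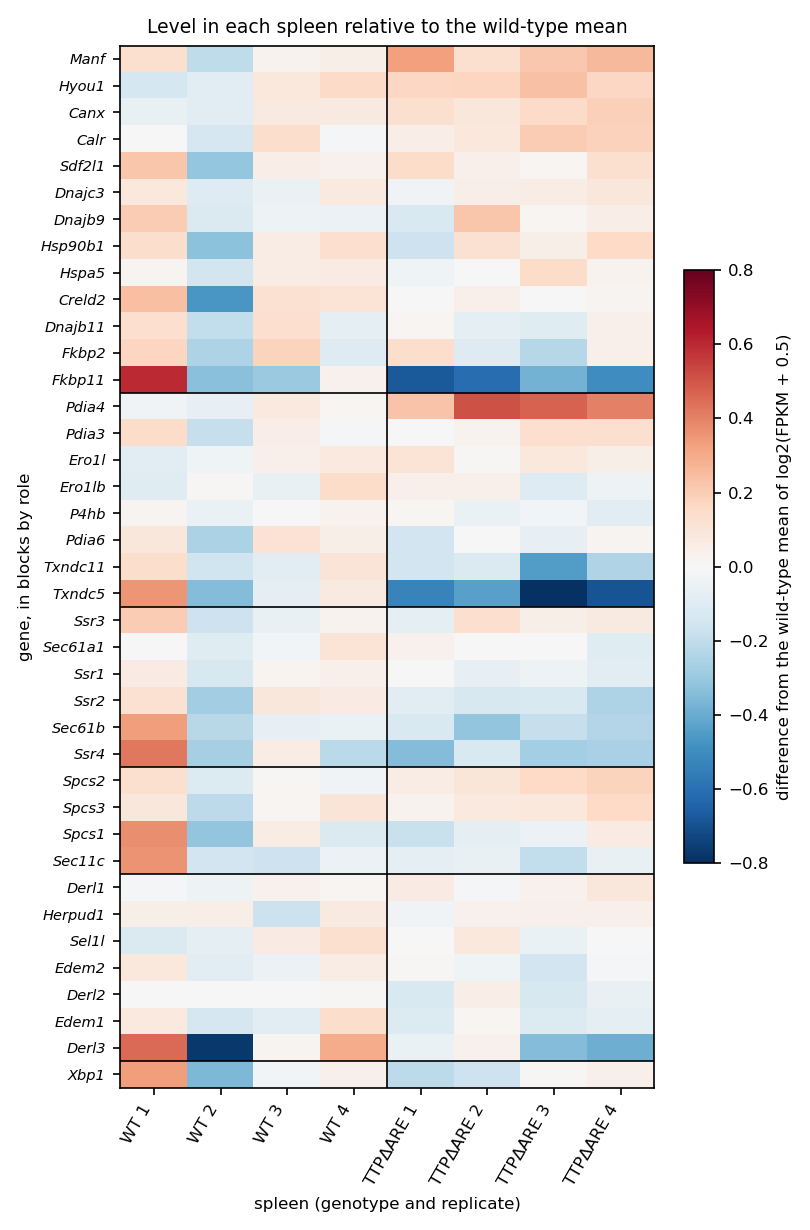
Colour shows the log2 level of each gene (y axis, in blocks by role) in each spleen (x axis), relative to the wild-type mean. Wild-type replicate 2 is blue for the 32 of 39 genes in which it was the lowest of its group, and for some others. Pdia4 is red and Txndc5 blue in all 4 TTPΔARE spleens, and most other TTPΔARE cells are pale.

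Plasma cell markers moved with part of the set. Over the 13 markers in the table, none of which is a member, the mean of log2(FPKM + 0.5) was 3.92, 3.43, 3.56 and 3.76 in wild-type replicates 1 to 4 and 3.49, 3.62, 3.40 and 3.52 in the TTPΔARE spleens. Replicate 1 was the highest and replicate 2 the lowest wild-type spleen, as for the members. Estimates were above 0 for 4 markers and below 0 for 9, and at an unadjusted p under 0.05 there was 1 higher and 4 lower. The 1 higher was Prdm1, which did not pass (log2 0.26, limma adjusted p = 0.192). The 4 lower were Tnfrsf13b, Sdc1, Eaf2 and Irf4. Sdc1 averaged 5.14 FPKM in wild-type and 3.47 FPKM in TTPΔARE, without passing (log2 -0.49, limma adjusted p = 0.0536). Eaf2 had log2 -0.69 and Irf4 -0.18, also without passing (limma adjusted p = 0.125 and 0.218). Of the 13 markers 1 passed, Tnfrsf13b, the receptor TACI, which fell from 20.8 ± 1.20 to 16.7 ± 0.755 FPKM (SD, n = 4 each; log2 -0.31, limma adjusted p = 0.0177). The summed marker level was 372 to 681 FPKM in wild-type and 385 to 446 FPKM in TTPΔARE, and no marker was at 0. The most abundant, the immunoglobulin joining chain Igj, spanned 181 to 447 and 177 to 224 FPKM (log2 -0.41, adjusted p = 0.317). With the marker mean as a covariate, Txndc5 was at -0.39 and still passed (adjusted p = 0.0317), and Pdia4 was at 0.41 (adjusted p = 0.0473). In the same fit 180 transcripts passed in all, against 664 without the covariate. Several of these markers, such as Irf4 and Cd28, are also expressed by other lymphocytes. Of the 12 B cell markers, 11 also had estimates below 0.

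**Figure D4:**
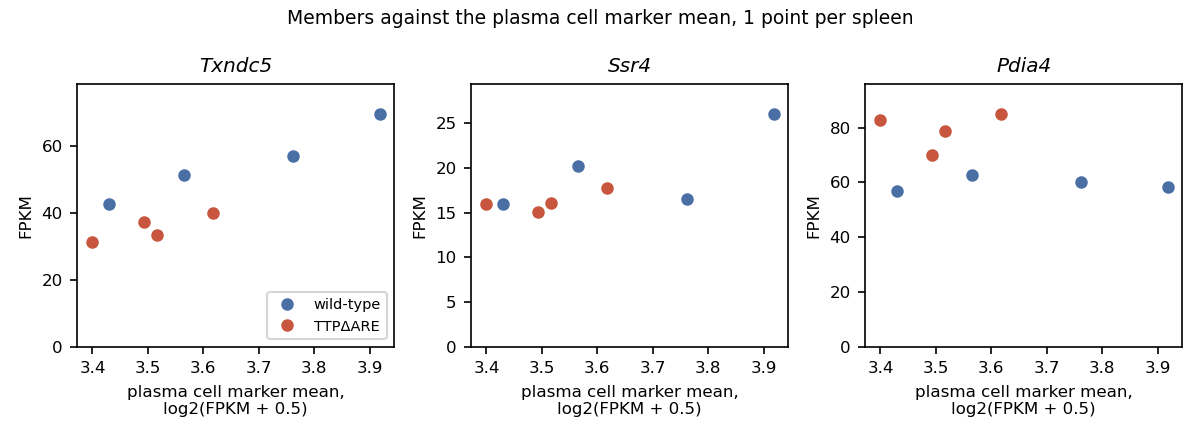
Levels of Txndc5, Ssr4 and Pdia4 in FPKM (y axis, from 0) are plotted against the plasma cell marker mean (x axis, log2), 1 point per spleen. Txndc5 is highest in the wild-type spleens with the highest marker mean and lies lower in TTPΔARE spleens of a like marker mean, while the 4 wild-type Pdia4 points stay between 57.0 and 62.8 FPKM.

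Among all transcripts tested, 4.00% passed by limma and 21.1% had an unadjusted p under 0.05. Few other genes of the pathway passed. Of 115 listed, 108 were tested and 1 passed, upward: Tmx4, a membrane-bound thioredoxin-like protein, at 4.66, 4.41, 4.94 and 5.15 FPKM in wild-type and 6.01, 6.00, 6.04 and 6.36 FPKM in TTPΔARE spleens (log2 0.32, SE 0.0615, adjusted p = 0.0177). It was the one call among 25 other folding genes (median 0.03), where the most abundant, Serp1, a translocon-associated stress protein, had log2 -0.24 without passing. By limma none passed of 17 other targeting and translocation genes (median 0.01, 1 at an unadjusted p under 0.05), of 11 oligosaccharyltransferase genes (0.02, 0), of 17 other degradation genes (-0.04, 2) or of 24 ER to Golgi transport genes (0.004, 1). The most abundant of these lists were Tram1, Rpn2, Vcp and Tmed2, with log2 values of 0.08, 0.03, 0.10 and -0.01.

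No sensor or transducer of the unfolded protein response passed (limma), against 4.00% of all transcripts. Of 14 tested, 8 had an unadjusted p under 0.05, 5 lower and 3 higher, against 21.1% of all transcripts, and the median was -0.08. Estimates were above 0 for 5 of the 14 and below 0 for 9. The 3 higher were Creb3l1, Ddit3 and Nfe2l1, with log2 values of 0.29, 0.22 and 0.15 (limma adjusted p = 0.154, 0.192 and 0.188). The 3 sensors were named for their role. Atf6 stood at 9.42, 8.98, 9.43 and 10.5 FPKM in wild-type and 7.69, 9.40, 7.62 and 7.76 FPKM in TTPΔARE (log2 -0.23, adjusted p = 0.121). Eif2ak3, which encodes PERK, had log2 -0.15 (adjusted p = 0.220), and Ern1, which encodes IRE1α, -0.09 (adjusted p = 0.513). Atf4, the translationally controlled factor downstream of PERK, was the most abundant of the list, at 40.6 ± 2.70 and 34.5 ± 1.57 FPKM (SD, n = 4 each; log2 -0.23, limma adjusted p = 0.0641).

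Promoters showed what many of these genes share outside their expression. The ER stress element, bound by ATF6 with the factor NF-Y, was searched as CCAAT and CCACG with 9 bases between them, on both strands of the 250 bases before each start that RefSeq lists for a gene (GRCm38.p6), which is more than 1 start for 5 members. It was found in 9 of the 32 members with a promoter sequence (28.1%) and in 16 of the 9833 tested genes with one (0.163%). Derl1, Hyou1, Manf, Sec11c, Sec61a1, Spcs3 and Ssr2 had no promoter sequence and were not searched. Sites are given for Hspa5, Hsp90b1, Calr, Pdia6 and Derl3, none of which passed. Capitals mark the element, written on the gene's own strand, so it reads reversed where it lies on the other strand.
Hspa5, chr2:34772020-34772049, + strand: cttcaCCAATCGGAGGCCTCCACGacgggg
Hsp90b1, chr10:86705632-86705661, - strand: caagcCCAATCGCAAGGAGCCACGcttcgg
Hsp90b1, chr10:86705527-86705556, - strand: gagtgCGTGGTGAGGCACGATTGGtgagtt
Calr, chr8:84847069-84847098, - strand: caacgCGTGGTCGACCCTCATTGGcccata
Pdia6, chr12:17266486-17266515, + strand: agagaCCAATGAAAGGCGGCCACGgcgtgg
Derl3, chr10:75893237-75893266, + strand: tctacCGTGGGACTTCCCCATTGGctagcc

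The other members with the element were Canx, Creld2, Dnajc3 and Ero1lb. None of the 9 passed, against 4.00% of all transcripts. The log2 values of the 9 ran from -0.19 to 0.14 with a median of 0.04. Herpud1 held the related element, ATTGG and CCACG with 1 base between them, found in 6 of 9833 tested genes (0.061%). Neither motif matched in the window of Pdia4, which says only that these letters are not there. The core of the XBP1-bound element, TGACGTGG, which shares CCACG with the motifs above when reversed, was found in 86 tested genes (0.875%). Txndc5, which passed, and Txndc11, which did not, were its only carriers among the members searched, and their sites are shown for that reason. A link between these sites and the levels was not tested. Both sites precede a start that lies inside the gene's span, by 910 bases for Txndc5 and 113 bases for Txndc11. The windows before the other listed starts of these genes held no match.
Txndc5, chr13:38528034-38528063, - strand: ggcctcgccgcTGACGTGGcgctagccgcc
Txndc11, chr16:11134616-11134645, - strand: tgaagtgtggcTGACGTGGagagtccgggt
A match is a description of the letters and does not show that a factor binds there.

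AU-rich motifs of the kind TTP binds were counted next. In the 3′ untranslated regions of the tested transcripts (GENCODE M21), the heptamer TATTTAT was found in 12 of 39 members (30.8%) and in 3270 of 11753 tested genes (27.8%). The nonamer TTATTTATT was found in 2 members (5.1%) and in 824 tested genes (7.0%). The nonamer carriers were the degradation genes Derl2 and Edem1, whose sites are shown because they are the members most like a TTP target by sequence.
Derl2, chr11:71008808-71008837, - strand: ctttaaggttTTATTTATTttccctaagtt
Edem1, chr6:108857115-108857144, + strand: gcaattggtcTTATTTATTtgttaagaata
Edem1, chr6:108859042-108859071, + strand: agctgcatttTTATTTATTacatacacaaa
Capitals mark the nonamer. Derl2 stood at 6.28 ± 0.0291 FPKM in wild-type and 5.99 ± 0.392 FPKM in TTPΔARE and Edem1 at 22.8 ± 2.11 and 21.6 ± 0.921 FPKM (SD, n = 4 each), with log2 values of -0.06 and -0.07. The 12 heptamer carriers had a median of 0.03 and none passed (limma), against 4.00% of all transcripts. Neither Pdia4 nor Txndc5 held the heptamer in this region.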

How the data were processed

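The authors deposited FPKM for 23517 RefSeq transcripts in each of the 8 spleens. The submitters' processing notes name BWA and the mm10 build. The sources used here do not give the counting tool or filters. The 16608 transcripts averaging 0.5 FPKM or more, which include all 39 members, entered a limma fit (3.58.1, R 4.3.3) of log2(FPKM + 0.5) with a variance trend. Two-sided p-values were adjusted by Benjamini-Hochberg over the whole fit, with a threshold of 0.05. Fold changes are on that scale, which understates changes of low transcripts. Intervals of differences are 95% and not adjusted for the number of genes. Depth was estimated from values of at most 0.2 FPKM, of which 48.3 to 51.5% were whole fragments within 0.05 at the best depth, too few to rebuild counts. Beyond the members and Zfp36, genes could be named that passed or were the most abundant of a pathway or marker list, and not all of these are named. Outside that rule stand Atf6, Eif2ak3, Ern1, Creb3l1, Ddit3, Nfe2l1, Pdia5, Prdm1, Sdc1, Eaf2, Irf4, Cd28, Hemgn and Cd3e, chosen after their values were seen. Replicates are separate mice, numbered in accession order. The members and lists were chosen with earlier results of these data known. The fit was tested on simulated data first. It recovered 58% of simulated 1.33-fold changes, 86% of 1.5-fold changes and 94% of 2-fold changes, and 5.1% of its calls were false. Python 3.11.15 with pandas 2.3.3 prepared the tables. Alternatives were other pseudocounts, filters, scalings, covariates and leaving out each spleen.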

Additional observations from a re-analysis of the deposited data

Results flagged for a closer look

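In 6 of 78 groups of 4 spleens, 1 spleen stood far from the other 3 by Dixon's criterion, which chance meets in about 1 in 20 groups. Hyou1 stood at 22.6 FPKM in TTPΔARE replicate 3, with the nearest other spleen of that genotype at 21.6 FPKM. Ssr2 stood at 18.8 FPKM in wild-type replicate 2, with the nearest at 23.9 FPKM, and Sec11c at 36.3 FPKM in TTPΔARE replicate 3, with the nearest at 39.5 FPKM. Herpud1 stood at 32.7 FPKM in wild-type replicate 3, with the nearest at 38.1 FPKM, and at 36.1 FPKM in TTPΔARE replicate 1, with the nearest at 37.7 FPKM. Derl2 stood at 6.32 FPKM in wild-type replicate 4, but its nearest neighbour was at 6.27 FPKM. None of these 5 genes passed the test between genotypes.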

How the results depend on the processing

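Over the 11 processing alternatives, 401 of 429 member values kept their direction and side of the threshold. Pdia4 and Txndc5 passed in all but the erythroid covariate, where by limma 0 members were called higher or lower, 0 of the other pathway genes and 0 transcripts in all passed, with 1227 at an unadjusted p under 0.05, 1 of them a member. In that fit Zfp36 was at 0.23 (adjusted p = 0.761). With the plasma cell covariate 180 transcripts and 0 other pathway genes passed, and Zfp36 was at 0.29 (adjusted p = 0.126). The cause was not tested. Members below the threshold changed sign in 26 cases. With the erythroid covariate Calr was at -0.0628, Hsp90b1 -0.112, Hspa5 -0.0996, Creld2 -0.154, Pdia3 -0.0356, Ero1l -0.0248, Ero1lb 0.0337, Spcs3 -0.0112, Sec11c 0.0945, Derl1 -0.0207 and Sel1l -0.0614. With the plasma cell covariate Dnajb11 was at 0.0343, Fkbp2 0.048, Pdia6 0.0369, Sec61a1 0.0191, Spcs1 0.0912, Sec11c 0.0532, Edem2 0.0156, Edem1 0.0162, Derl3 0.169 and Xbp1 0.0778. With quantile normalization P4hb was at 0.000268, Sec61a1 0.00822 and Sel1l -0.00186, and after rescaling without globins Ero1lb was at 0.0143 and Sec61a1 at 0.0139. With 1 spleen left out, 15 members changed sign, none of them called: Creld2 ran from -0.139 to 0.0973, Dnajb11 -0.0943 to 0.0174, Dnajb9 -0.0182 to 0.11, Ero1lb -0.046 to 0.034, Fkbp2 -0.12 to 0.0269, Herpud1 -0.0346 to 0.0457, Hsp90b1 -0.069 to 0.109 and Hspa5 -0.0122 to 0.0595. Sdf2l1 ran from -0.0174 to 0.158, Sec11c -0.153 to 0.0214, Sec61a1 -0.0467 to 0.022, Sel1l -0.0308 to 0.051, Spcs1 -0.162 to 0.0659, Ssr3 -0.0111 to 0.112 and Xbp1 -0.2 to 0.0321. In the same fits 197 to 714 transcripts passed, 1 member was higher and 0 to 1 lower, 0 to 2 other pathway genes passed, and Zfp36 was at 0.34 to 0.45. The folding median ran from -0.01 to 0.07 and that of the translocation and degradation genes from -0.08 to -0.02. With the erythroid covariate these medians were -0.0455 and -0.0232, and with the plasma cell covariate 0.101 and 0.0191. No paired analysis was possible because the labels give no replicate numbers shared by the genotypes. FPKM without counts leave the counting error of low members such as Fkbp11 unmeasured.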

Other observations

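The ratio of Pdia4 to Txndc5 within a spleen, chosen after the values were seen, was 0.838, 1.34, 1.22 and 1.05 in wild-type replicates 1 to 4 and 1.87, 2.12, 2.65 and 2.35 in TTPΔARE replicates 1 to 4. Both genes encode abundant disulfide isomerases, and Pdia4 was the more abundant in 7 of 8 spleens. The ratio of Txndc5 to P4hb was 1.25, 0.804, 0.932 and 1.02 in wild-type and 0.672, 0.754, 0.577 and 0.649 in TTPΔARE spleens.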
